A study of Mus musculus with 17 samples.

Results

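The genes described here encode the chains of the collagens in mouse heart. They were chosen by symbol, as protein-coding genes named Col, a type number, the letter a and a chain number, with fragments in at least 3 of the 17 libraries. Of 41126 genes in the tables, 44 had such a symbol and 41 met the rule. They comprise 10 chains of fibril-forming collagens, 6 chains of the basement membrane collagen type IV, 8 chains of fibril-associated collagens with interrupted helices (FACIT) and 17 other chains. Col6a4 (fragments in 2 libraries), Col2a1 (1 library) and Col9a1 (0 libraries) fell just outside the rule, and Col11a1 (15 libraries) and Col19a1 (16 libraries) just inside. The other members had fragments in all 17. A filter on low counts left 37 members for testing, and Col11a1, Col24a1, Col19a1 and Col9a3 were too low to test.

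Collagens are secreted proteins in which chains wind around each other as a helix, either as copies of the same chain or as a fixed mixture of chains from different genes. Types I, III and V form the fibrils of the heart's interstitium, FACIT collagens sit on the surface of those fibrils, and type IV forms the sheet that surrounds heart muscle cells and capillaries. Fibroblasts make most fibrillar collagen in the heart, and excess deposition, known as fibrosis, stiffens the pressure-loaded ventricle.

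RNA from hearts of C57BL/6 mice was sequenced in 5 groups. Control had 3 libraries. Transverse aortic constriction (TAC), surgery that narrows the aortic arch so that the left ventricle pumps against a raised pressure, was followed by daily vehicle for 1 week (4 libraries) or 6 weeks (3 libraries), or by daily SR9009, a synthetic ligand that activates the clock repressor REV-ERB, for 1 week (4 libraries) or 6 weeks (3 libraries). Animals lived in 12 h light and 12 h dark on normal chow and hearts were taken at about zeitgeber time 10. The labels carry neither sex nor age, and they do not state whether Control animals were operated on or dosed. They give no week for Control, so load, age and dosing time cannot be told apart in comparisons with it or between weeks. Nothing in them says that replicates were separate animals, so p-values here reflect how much these samples varied, and that variation may be technical.

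Library totals were 9677915 to 10139612 fragments in Control, 8683212 to 12575142 after 1 week with vehicle, 10773565 to 13366326 after 1 week with SR9009, 13350476 to 15809965 after 6 weeks with vehicle and 9907991 to 13646363 after 6 weeks with SR9009. Totals of the TAC 6 week vehicle and TAC 1 week SR9009 groups lay wholly above those of Control, and those of TAC 6 week vehicle also above TAC 1 week vehicle. Summed cardiomyocyte markers (8 genes) were 38950 to 55680 CPM (counts scaled to 1000000 per library) in all libraries, while lung and airway markers summed to at most 0.537 CPM, with Scgb1a1 at 0 in every library. Some libraries stood apart in the collagen genes and in 6 activated fibroblast markers (Postn, Cthrc1, Meox1, Fap, Acta2, Ltbp2). TAC 1 week SR9009 replicate 2 had the highest marker sum, 2347 CPM against 468 to 953 in its group. TAC 6 week vehicle replicate 1 had 546 CPM against 1067 and 1289 in its group, and 1545 CPM of endothelial markers against 1074 and 1138. TAC 1 week vehicle replicate 2 was the lowest of its group, at 388 CPM against 770.4 to 1157. Postn alone was at 2016, 368 and 235 CPM in these libraries, in the order named. Activated fibroblast sums in TAC libraries therefore mostly follow that gene. Counts of called members are given with and without the libraries that stood apart where the count or its members changed. Since the libraries were picked by such values, calls gained without them are no separate evidence of a difference.

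The promoters of 5 chains that carry the results are shown first, from RefSeq (GRCm38.p6, 250 bases before to 50 bases after the listed start, read 5′ to 3′ on the gene's strand). Col1a2 and Col3a1 are fibrillar chains that rose at 1 week, Col4a1 and Col4a2 are neighbours read in opposite directions, and Col8a1 was higher than Control at both times. Capitals mark matches on either strand to the CCAAT box, the TATAAA box, the GC-box core GGGCGG and the M-CAT core CATTCC. A match on the opposite strand appears as its reverse complement. No matches of different motifs overlap in the sequences shown.
Col1a2 (chr6:4505368-4505667, plus strand): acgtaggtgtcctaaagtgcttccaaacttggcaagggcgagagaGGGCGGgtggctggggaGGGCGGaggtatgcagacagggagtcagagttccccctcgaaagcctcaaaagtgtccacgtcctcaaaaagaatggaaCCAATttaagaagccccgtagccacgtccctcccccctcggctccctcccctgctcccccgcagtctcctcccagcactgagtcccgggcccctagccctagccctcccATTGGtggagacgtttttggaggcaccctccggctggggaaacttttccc
Col3a1 (chr1:45311288-45311587, plus strand): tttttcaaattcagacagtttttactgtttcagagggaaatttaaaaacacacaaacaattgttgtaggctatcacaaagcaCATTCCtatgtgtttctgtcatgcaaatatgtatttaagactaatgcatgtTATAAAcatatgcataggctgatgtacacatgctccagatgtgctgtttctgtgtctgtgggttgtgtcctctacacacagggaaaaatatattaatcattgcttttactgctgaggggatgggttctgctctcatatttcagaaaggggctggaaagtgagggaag
Col4a1 (chr8:11312777-11313076, minus strand): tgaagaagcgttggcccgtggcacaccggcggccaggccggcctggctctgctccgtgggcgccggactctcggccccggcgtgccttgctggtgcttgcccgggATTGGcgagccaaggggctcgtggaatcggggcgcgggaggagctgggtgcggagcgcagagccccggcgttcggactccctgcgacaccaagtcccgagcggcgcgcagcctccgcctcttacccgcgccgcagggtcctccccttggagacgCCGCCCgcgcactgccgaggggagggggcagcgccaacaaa
Col4a2 (chr8:11312555-11312854, plus strand): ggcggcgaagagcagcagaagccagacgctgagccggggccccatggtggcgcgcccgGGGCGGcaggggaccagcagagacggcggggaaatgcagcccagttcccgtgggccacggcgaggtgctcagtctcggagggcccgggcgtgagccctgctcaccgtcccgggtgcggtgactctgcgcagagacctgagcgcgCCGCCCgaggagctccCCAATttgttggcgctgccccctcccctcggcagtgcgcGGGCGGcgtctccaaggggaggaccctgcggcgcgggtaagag
Col8a1 (chr16:57754688-57754987, minus strand): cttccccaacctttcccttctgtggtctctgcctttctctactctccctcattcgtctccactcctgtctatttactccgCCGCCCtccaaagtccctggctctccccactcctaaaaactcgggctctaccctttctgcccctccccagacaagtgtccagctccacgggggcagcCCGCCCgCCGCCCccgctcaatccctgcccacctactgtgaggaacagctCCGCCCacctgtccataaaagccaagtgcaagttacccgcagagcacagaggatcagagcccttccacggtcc

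Positions are those of the leftmost base of a match, counted from the listed start as 0. Col3a1 had TATAAA at -117 and CATTCC at -168, and held no GGGCGG or CCAAT. The Col1a2 window lies at a start 804 bases from the start of the GENCODE gene, and held CCAAT at -109 and 0 and GGGCGG at -205 and -188. Col8a1 held GGGCGG at -170, -73, -66 and -23, all on the other strand. The starts of Col4a1 and Col4a2 lie 21 bases apart, so their windows share bases, and both held CCAAT and GGGCGG. Promoters were listed for 33 of the 41 members. GGGCGG was in 63.6% of these and in 35.7% of all 32851 listed promoters of the same length, CCAAT in 33.3% and 37.4%, TATAAA in 15.2% and 13.6%, and CATTCC in 9.09% and 14.7%. These are descriptions of letters, not of binding.

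In Control hearts the most abundant chains, as a level in CPM per kb of merged exon (mean ± SD, n = 3), were Col4a1 (116 ± 9.96), Col4a2 (77.5 ± 1.64) and Col3a1 (49.9 ± 2.48). Col4a1 and Col4a2 encode the chains of the most widespread type IV collagen, and Col3a1 the sole chain of type III. Next came Col6a1 (32.8 ± 1.82), a chain of the beaded-filament collagen type VI, and Col15a1 (24.7 ± 2.30), whose product lies next to basement membranes. The major fibril chain genes Col1a2 (14.7 ± 0.719) and Col1a1 (8.96 ± 0.336) were lower per kb than these. This order depends on merged exon length, which was 12426 bases in Col1a2 against 4380 in Col6a1. Where the RNA uses fewer of the merged exons, the level per kb comes out too low. Fragments of Col3a1, Col4a1 and Col4a2 made up 58.4 ± 0.821% of all collagen fragments in Control (SD, n = 3).

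Collagen genes took 0.323% ± 0.0130 (SD, n = 3) of library fragments in Control. Library fragments in these shares leave out the 78 genes marked as too deep, so they are not shares of all heart RNA. The share was 0.726 ± 0.161% (SD, n = 4) after 1 week with vehicle, 0.674 ± 0.295% (n = 4) after 1 week with SR9009, 0.445 ± 0.0575% (n = 3) after 6 weeks with vehicle and 0.348 ± 0.0151% (n = 3) after 6 weeks with SR9009. By library it was 0.319, 0.337 and 0.312% in Control, 0.725, 0.50, 0.815 and 0.863% at 1 week with vehicle, 0.657, 1.10, 0.471 and 0.471% at 1 week with SR9009, 0.426, 0.509 and 0.399% at 6 weeks with vehicle and 0.357, 0.331 and 0.357% at 6 weeks with SR9009. All libraries at 1 week and all 6 week vehicle libraries were above Control, and replicate 2 stood well above the other 1 week SR9009 libraries. The 6 week SR9009 libraries fell between 0.331% and 0.357%, overlapping the Control range. Fibrillar chains made up 29.8 ± 0.486% of collagen fragments in Control and 38.4 ± 3.06% at 1 week with vehicle (SD), while type IV chains made up 48.2 ± 1.02% and 40.3 ± 2.89%. No test was run on these shares. In whole hearts, more collagen-making cells and more RNA per cell cannot be told apart.

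**Figure D1:**
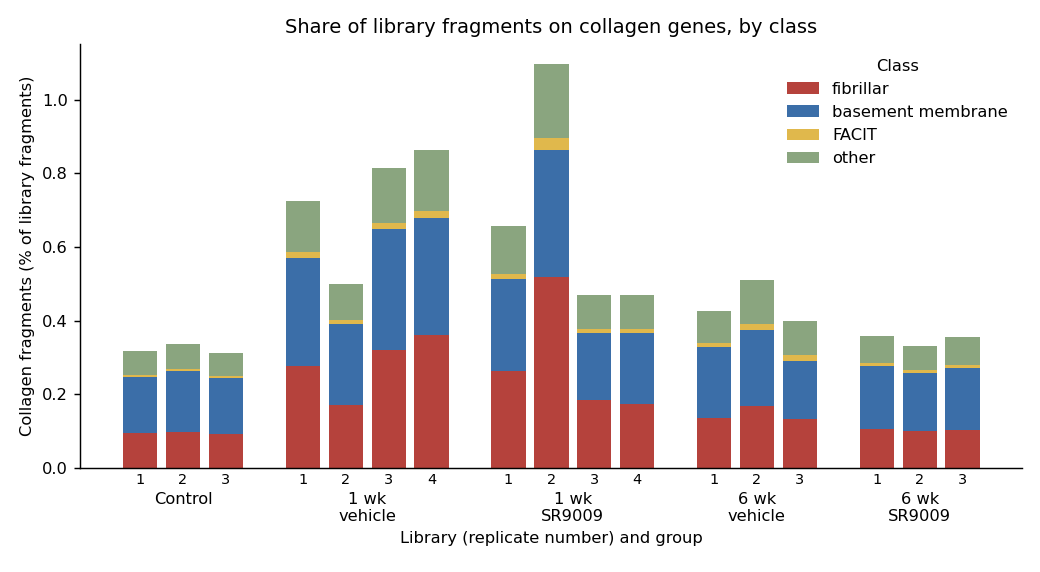
Percent of library fragments on the 41 collagen genes (y axis) in each of 17 libraries (x axis, replicate number under each bar), stacked by class. Library fragments leave out the 78 genes marked as too deep. Control bars reach 0.312% to 0.337%, the 1 week vehicle bars 0.5% to 0.863%, and TAC 1 week SR9009 replicate 2 reaches 1.1%.

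The comparison of 1 week of TAC with Control asks how early pressure load changed collagen expression. In the edgeR quasi-likelihood test with Benjamini-Hochberg adjustment over all 15931 genes tested, 19 of 37 tested members were higher and 0 were lower, where 8.91% of all tested genes were higher, 5.92% lower and 14.8% were called in either direction. The median log2 fold change was 0.80 over the members and -0.004 over all genes. By class, 5 of 8 tested fibrillar, 5 of 6 basement membrane, 3 of 6 FACIT and 6 of 17 other chains were higher. The calls were the same number (19) with DESeq2, with no filter on low counts, with a replicate block and with the library total as a covariate. It was 20 without TAC 1 week vehicle replicate 2, and 17 of the 19 passed in every fit that left out 1 library; Col12a1 and Col4a4 did not. Among called members, Col12a1 (2.72 ± 0.82) and Col8a1 (2.23 ± 0.44) differed most on the log2 scale.

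Type I collagen, the main load-bearing fibril, is a trimer of products of Col1a1 (chromosome 11, 94936224 to 94953042, plus strand) and Col1a2 (chromosome 6, 4504814 to 4541544, plus strand). Col1a1 was at 56.4, 59.4 and 60.7 CPM in the Control libraries and 182, 117, 198 and 219 CPM at 1 week with vehicle. It rose by 1.61 ± 0.34 on the log2 scale (SE, adjusted p = 0.00604), with every 1 week library above every Control library. Col1a2 was at 188, 172 and 187 CPM in Control and 455, 298, 502 and 549 at 1 week, again with no overlap, and rose by 1.31 ± 0.28 (adjusted p = 0.00624). TAC 1 week vehicle replicate 2 was the lowest of its group in both genes. Here and below, lack of overlap only describes the libraries, since the share of all genes without overlap is not given.

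Type III collagen, made of Col3a1 chains (chromosome 1, 45311538 to 45349706, plus strand), forms thin compliant fibrils. Its counts were 491, 514 and 466 CPM in Control and 1526, 927, 1815 and 2047 CPM at 1 week, a log2 rise of 1.69 ± 0.30 (adjusted p = 0.00242). No library of one group reached the range of the other. Col5a1 and Col5a2, type V chains that set fibril diameter, followed: Col5a1 was at 86.2, 84.5 and 85.7 CPM in Control and 217, 145, 216 and 255 at 1 week (1.29 ± 0.23, adjusted p = 0.00234). Col5a2 was at 72.9, 80.7 and 70.0 and 239, 143, 287 and 308 CPM (1.71 ± 0.34, adjusted p = 0.00407), likewise without overlap. Col5a3, the third type V chain, missed the threshold (0.67 ± 0.29, adjusted p = 0.122). Col5a2 lies 24614 bases from Col3a1, with the genes on opposite strands. Exons of other genes overlap those of Col5a1 on the opposite strand by 212 bases and those of Col3a1 on the same strand by 141 bases, so some fragments there may belong to either gene.

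Among the basement membrane chains the median log2 fold change was 0.60, against 1.30 among the fibrillar chains; the difference between classes was not tested. Col4a1 (chromosome 8, 11198423 to 11312826, minus strand) was at 823, 949 and 818 CPM in Control and 1717, 1281, 1953 and 1867 at 1 week (0.98 ± 0.19, adjusted p = 0.00336). Col4a2 (chromosome 8, 11312805 to 11449287, plus strand) was at 501, 517 and 521 and 921, 707, 994 and 973 CPM (0.81 ± 0.16, adjusted p = 0.00408). In both genes the 1 week libraries lay entirely above Control. Their exons overlap by 22 bases, so fragments there can be counted for either gene, since the labels do not state strand-aware counting. Chains of the tissue-restricted type IV collagen rose modestly: Col4a3 by 0.68 ± 0.12, Col4a4 by 0.53 ± 0.12 and Col4a5 by 0.34 ± 0.07. Exons of Col4a3 overlap the antisense gene C430014B12Rik by 563 bases, so its values may include fragments of that gene. C430014B12Rik itself was at 0.721 to 2.30 CPM over the 17 libraries. Col4a6 did not pass (0.23 ± 0.18, adjusted p = 0.417).

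Among FACIT chains, Col12a1 (chromosome 9, 79598991 to 79718831, minus strand), which links fibrils in tissue under tension, was at 3.02, 4.70 and 2.17 CPM in Control and 21.4, 9.29, 21.3 and 34.1 at 1 week. It rose by 2.72 ± 0.82 (adjusted p = 0.0338) with all 1 week libraries above Control, but the call was lost in 6 of 7 fits that left out 1 library (adjusted p up to 0.119). Col14a1, which binds the fibril surface, went from 34.0, 33.5 and 32.8 to 93.8, 60.8, 103 and 100.2 CPM (1.42 ± 0.27, adjusted p = 0.0032), and its groups did not overlap. Col16a1 rose by 1.45 ± 0.30 (adjusted p = 0.00557).

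Of the other chains, Col8a1, a chain of the network collagen type VIII of vessels (chromosome 16, 57624258 to 57754737, minus strand), was at 48.0, 53.5 and 47.9 CPM in Control and 230.5, 115, 274 and 312 at 1 week (2.23 ± 0.44, adjusted p = 0.00389). Its partner Col8a2 was at most 3.79 CPM at 1 week and missed the threshold (1.34 ± 0.63, adjusted p = 0.157). Every 1 week library was above Control in Col8a1. Of 5 type VI chains tested, 3 rose: Col6a1 by 0.88 ± 0.16, Col6a2 by 0.98 ± 0.17 and Col6a3 by 1.07 ± 0.18, the last with the smallest p of all members (adjusted p = 0.00162). Col6a1 was at 147, 149.5 and 134 CPM in Control and 254, 206, 297 and 297 at 1 week, Col6a2 at 102, 99.3 and 101 and 209.7, 146, 217 and 224, and Col6a3 at 133, 133 and 123 and 281, 200.5, 277 and 330.2. In none of these did the groups overlap. The other type VI chains were not called. Col6a6 was at 28.6, 28.4 and 30.4 CPM in Control and 21.8, 26.5, 17.8 and 18.1 at 1 week, with every 1 week library below Control (-0.48 ± 0.23, adjusted p = 0.173), and Col6a5 had an estimate of 0.22 ± 0.50 (adjusted p = 0.805). Col15a1 (162, 168 and 140.4 CPM in Control, 306, 238, 323 and 355 at 1 week) rose by 0.96 ± 0.19. Col18a1, whose product carries the endostatin fragment, was at 15.1, 11.8 and 15.0 and 31.1, 21.4, 30.1 and 36.5 CPM and rose by 1.10 ± 0.23.

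**Figure D2:**
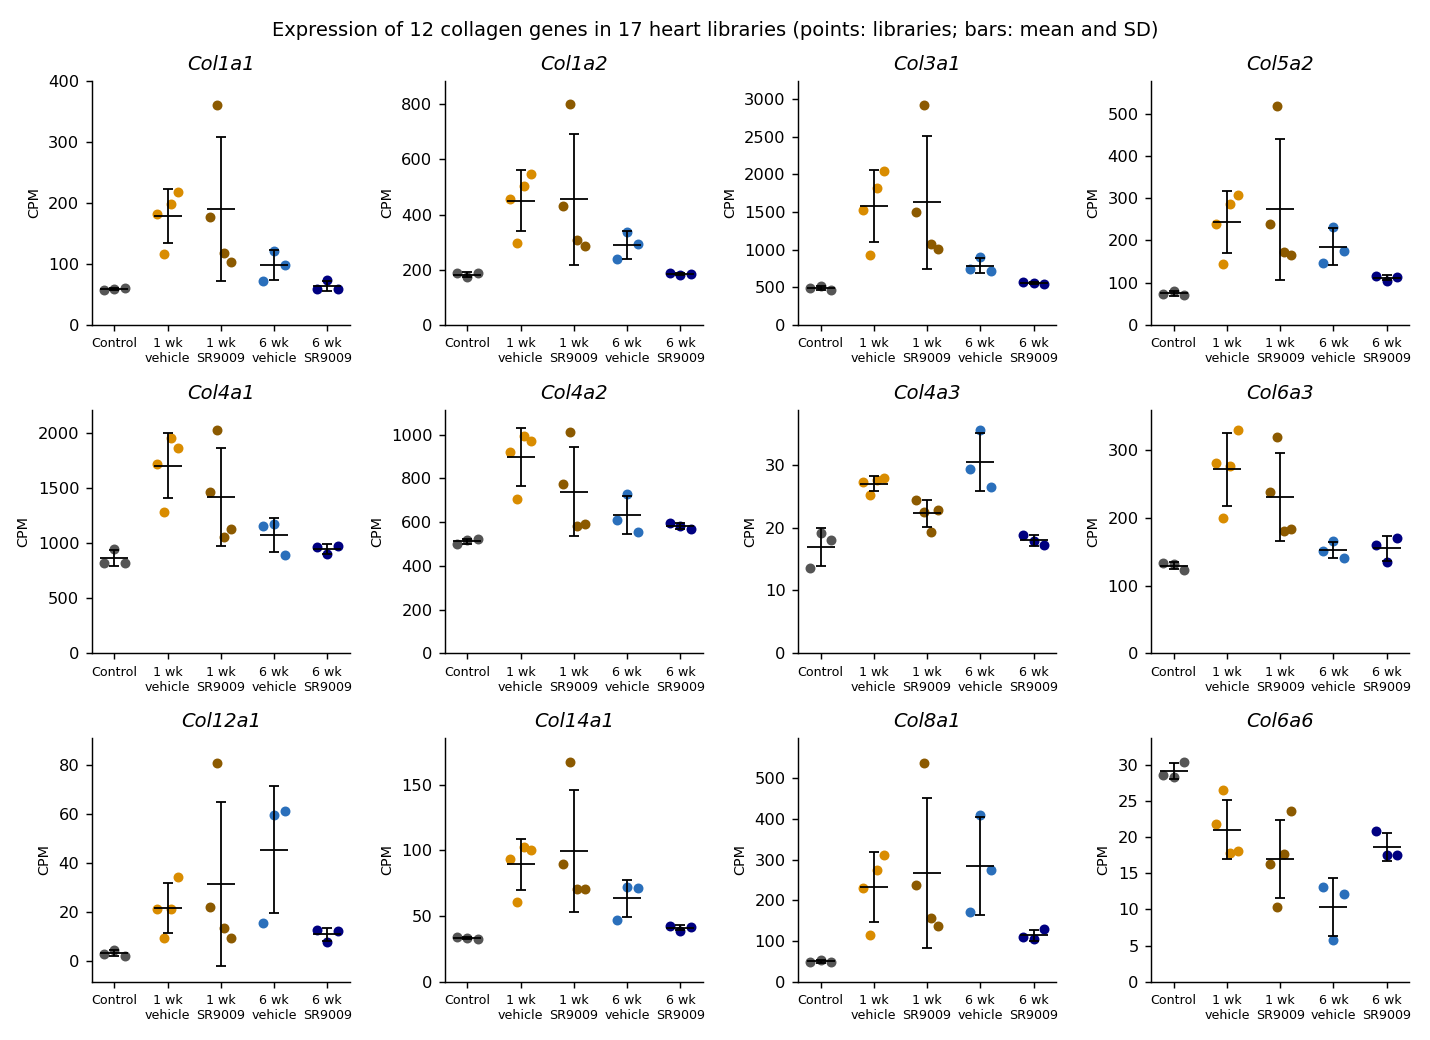
CPM (y axis, one scale per gene) of 12 collagen genes in 5 groups (x axis). Points are libraries and bars the mean and SD. Most 1 week points lie above Control, TAC 1 week SR9009 replicate 2 is the highest 1 week SR9009 library in 10 of the panels, and Col6a6 is highest in Control.

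Markers of the cell types a heart holds were measured in the same libraries, where 8.91% of all tested genes were higher and 5.92% lower at 1 week with vehicle. Summed activated fibroblast markers were 174 to 207 CPM in Control and 388 to 1157 at 1 week with vehicle, with Postn (3.13 ± 0.60), Meox1 (1.55 ± 0.34) and Ltbp2 (2.10 ± 0.60) higher and the other 3 of 6 not called. Fibroblast markers summed to 2241 to 2335 and 1862 to 2121 CPM, with 2 of 7 higher (Lum, Pcolce) and 1 lower (Gsn). Gsn alone was at 1348 to 1402 CPM in Control and 731 to 1152 at 1 week, so the sum mostly follows that gene. The median log2 fold change over the 7 fibroblast markers was 0.26. Macrophage markers summed to 413 to 435 and 610.2 to 751 CPM, with 8 of 8 higher. Endothelial markers summed to 1263 to 1362 and 1402 to 1534 CPM, with Pecam1 and Cdh5 of 7 higher. The part of these cell types in the collagen result was not tested.

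After 6 weeks of TAC with vehicle the set of chains that differed from Control was smaller. Of 37 tested members 8 were higher and 2 lower, where 10.7% of all genes tested were higher and 9.96% lower, and 20.7% were called in either direction. Counting both directions, the share of members called was not far above the background. The median log2 fold change was 0.30 over the members and -0.01 over all genes. Higher were Col12a1 (3.77 ± 0.81), Col8a2 (2.65 ± 0.59), Col8a1 (2.52 ± 0.45), Col5a2 (1.31 ± 0.35), Col16a1 (1.28 ± 0.32), Col14a1 (0.92 ± 0.28), Col4a3 (0.85 ± 0.12) and Col4a4 (0.42 ± 0.13). Lower were Col6a6 (-1.49 ± 0.26), a type VI chain, and Col17a1 (-0.87 ± 0.23), a transmembrane chain of skin adhesion.

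Col8a1 stayed far above Control, at 171, 409.6 and 274 CPM at 6 weeks against 48.0, 53.5 and 47.9 (adjusted p = 0.00114). Col12a1 was at 15.5, 59.5 and 61.1 CPM and Col8a2 at 2.35, 8.97 and 10.6 CPM, against 1.04, 1.30 and 1.14 CPM of Col8a2 in Control. In each of these, replicate 1 was the lowest 6 week library but above every Control library. Col14a1 was at 47.3, 71.9 and 71.3 CPM (adjusted p = 0.027) and Col5a2 at 147, 232 and 176 CPM (adjusted p = 0.0141), both without overlap with Control. Col4a3 was at 29.3, 35.6 and 26.4 CPM against 13.5, 19.1 and 18.1 in Control, with the smallest p among the members (adjusted p = 0.000236), and Col6a6 at 13.1, 5.72 and 12.2 against 28.6, 28.4 and 30.4 CPM. All 6 week libraries were above Control in Col4a3 and below it in Col6a6.

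The major fibrillar and type IV chains did not pass at 6 weeks. Col1a1 was at 72.8, 122 and 98.8 CPM (0.73 ± 0.35, adjusted p = 0.155), Col1a2 at 237, 337 and 292 (0.66 ± 0.29, adjusted p = 0.114) and Col3a1 at 743, 896 and 709 (0.68 ± 0.31, adjusted p = 0.132). All of these libraries were above Control, so the missed threshold does not show that the levels were alike. Col5a1 was at 92.5, 134 and 103 CPM (0.36 ± 0.24, adjusted p = 0.312). Col4a1 was at 1155, 1171 and 895 CPM and overlapped Control (0.31 ± 0.19, adjusted p = 0.275), and Col4a2, at 612, 729 and 556 CPM, was above it (0.30 ± 0.17, adjusted p = 0.22). Col6a1 (179, 208 and 183 CPM), Col15a1 (217, 249 and 189.5 CPM) and Col18a1 (15.2, 17.7 and 14.2 CPM) had log2 differences of 0.40 ± 0.17, 0.48 ± 0.20 and 0.17 ± 0.25, with adjusted p of 0.101, 0.106 and 0.683. Trimer partners of passing chains that missed included Col4a5 (0.22 ± 0.08, adjusted p = 0.0515) and Col6a2 (0.39 ± 0.18). Col6a3, another type VI chain, missed as well (0.23 ± 0.19). Col5a3, a type V chain like the passing Col5a2, was not called. It was at 63.7, 23.0 and 18.9 CPM against 43.4, 55.95 and 47.2 in Control, so replicate 1 was above Control and the other 6 week libraries below it.

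Of the 10 calls at 6 weeks, 7 held in each of the 6 fits that left out 1 library. Col14a1 was not called in 5 of these fits, Col4a4 in 4 and Col5a2 in 3. The count at 6 weeks depended on the fit, and where no share of all genes is given it shows only that dependence. It was 12 without TAC 6 week vehicle replicate 1 and 19 when only the compared groups were fitted. Control replicate 2, TAC 1 week SR9009 replicate 2 and TAC 6 week vehicle replicate 1 were also left out together. Earlier work on these data had named this set as standing apart, though Control replicate 2 is not among the libraries described above as apart. That fit gave 18 calls, where 26.3% of all genes tested in it were called. With the library total as a covariate the count was 1 (Col4a3). Since totals did not overlap between the groups compared, depth and group cannot be told apart. Activated fibroblast markers summed to 546 to 1289 CPM, with 3 of 6 higher than Control, led by Ltbp2 (3.41 ± 0.60) and Postn (3.43 ± 0.63). Macrophage markers summed to 624 to 683 CPM, with 7 of 8 higher, and fibroblast markers to 2490 to 3089 CPM, with 3 of 7 higher. Over all tested genes, 10.7% were higher and 9.96% lower than Control. Mesothelial markers (Upk3b, Msln, Upk1b, Wt1) summed to 12.1 to 17.7 CPM against 49.5 to 60.9 in Control, with 3 of 4 lower, and cartilage and valve markers to 15.5 to 57.7 against 4.76 to 6.00 CPM. Their part in the collagen values was not tested.

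**Figure D3:**
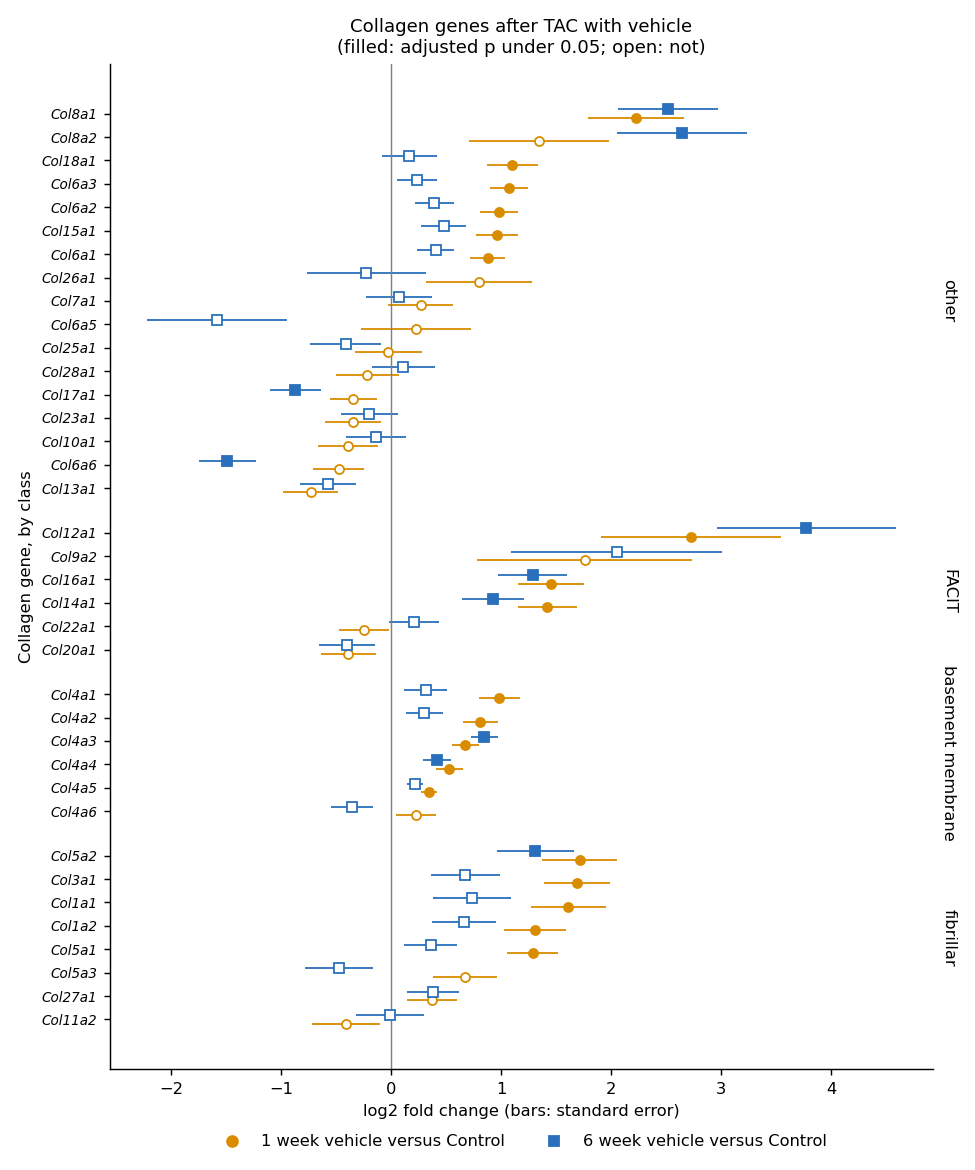
Log2 fold change against Control (x axis, bars are SE) of the 37 tested collagen genes (y axis, by class) for TAC with vehicle at 1 week (circles) and 6 weeks (squares). Filled symbols passed the adjusted p threshold. Most circles lie right of 0 and are filled among fibrillar, basement membrane and type VI chains, while the largest 6 week values are those of Col12a1, Col8a2 and Col8a1.

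Between 1 and 6 weeks with vehicle, 0 members rose and 10 of 37 fell, where 5.9% of all genes tested fell, 6.18% rose and 12.1% were called in either direction. The median log2 difference was -0.40 over the members and -0.02 over all genes. Those that fell were Col5a3 (-1.15 ± 0.29), Col3a1 (-1.01 ± 0.29), Col6a6 (-1.01 ± 0.25), Col18a1 (-0.93 ± 0.22), Col5a1 (-0.93 ± 0.22), Col6a3 (-0.84 ± 0.17), Col4a1 (-0.67 ± 0.18), Col6a2 (-0.59 ± 0.17), Col4a6 (-0.58 ± 0.18) and Col4a2 (-0.51 ± 0.16). Col6a3 was at 281, 200.5, 277 and 330.2 CPM at 1 week and 151, 166 and 141 at 6 weeks, with no overlap, and was the sole member called in all 7 fits that left out 1 library. Col1a1 (-0.88 ± 0.33, adjusted p = 0.0888) and Col1a2 (-0.64 ± 0.27, adjusted p = 0.133) missed the threshold, as did Col6a1 (-0.47 ± 0.16, adjusted p = 0.0611). Col12a1 (1.05 ± 0.58, adjusted p = 0.258) and Col8a1 (0.29 ± 0.39, adjusted p = 0.686) had positive estimates, and Col5a2 (-0.40 ± 0.32) and Col14a1 (-0.50 ± 0.25) negative ones, none past the threshold. DESeq2 called 12 members and 13.4% of all genes. The count was 0 with the library total as a covariate, where totals again did not overlap between the groups. It was 11 without TAC 1 week vehicle replicate 2, all lower, 5 without replicate 1 or 4 of that group and 6 without its replicate 3. It was 5 without TAC 6 week vehicle replicate 2 and 2 without its replicate 3. No share of all genes is given for these single-library fits, so they show only how the calls depended on each library.

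Which members were called also depended on TAC 6 week vehicle replicate 1. Without it 9 members were called from 1 to 6 weeks with vehicle, where 16.3% of all genes tested in that fit were called. Of these, 7 were lower, and Col8a2 (1.72 ± 0.39, adjusted p = 0.00673) and Col22a1 (0.69 ± 0.19, adjusted p = 0.0214) were higher. Col3a1, Col4a2 and Col6a2 were no longer called. Over all 7 fits that left out 1 library, Col3a1 was lost in 6, and Col4a2 and Col6a2 in 5. The members that fell with all libraries kept negative estimates in each of these fits. With all libraries Col8a2 (1.30 ± 0.47, adjusted p = 0.078) and Col22a1 (0.45 ± 0.22, adjusted p = 0.188) had missed the threshold. Col8a2 was at 2.31, 2.06, 3.79 and 3.53 CPM at 1 week against 2.35, 8.97 and 10.6 at 6 weeks, so replicate 1 was the one 6 week library within the 1 week range. Leaving out Control replicate 2, TAC 1 week SR9009 replicate 2 and TAC 6 week vehicle replicate 1 together gave 16 calls, where 20.9% of all genes were called. These were 13 lower and 3 higher, the latter being Col12a1 (1.46 ± 0.28, adjusted p = 0.00174), Col8a2 (1.73 ± 0.22) and Col22a1 (0.70 ± 0.19).

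Ratios between chains were compared per kb, as a description with no test. Their absolute size depends on the merged exon lengths, while the order of libraries within a ratio does not. The Col5a1 to Col5a2 ratio was 1.34, 1.18 and 1.38 in Control, 1.03, 1.14, 0.848 and 0.936 at 1 week with vehicle, 0.918, 0.597, 0.843 and 0.886 at 1 week with SR9009, 0.708, 0.653 and 0.660 at 6 weeks with vehicle and 0.884, 1.03 and 0.856 at 6 weeks with SR9009. All TAC libraries were below Control. The lowest of all 17 was TAC 1 week SR9009 replicate 2, below every 6 week vehicle library; the 6 week vehicle libraries were in turn below all other libraries. Type V trimers can differ in chain makeup, and transcript ratios do not give protein ratios. The Col1a1 to Col1a2 ratio was 0.569, 0.653 and 0.613 in Control and 0.759, 0.744, 0.745 and 0.755 at 1 week with vehicle, without overlap, and 0.581, 0.683 and 0.640 at 6 weeks. Col4a1 to Col4a2 was 1.37 to 1.77 over all 17 libraries and Col6a1 to Col6a2 2.30 to 2.86. The ratio of Col3a1 to Col1a1 was 4.80 to 6.83.

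**Figure D4:**
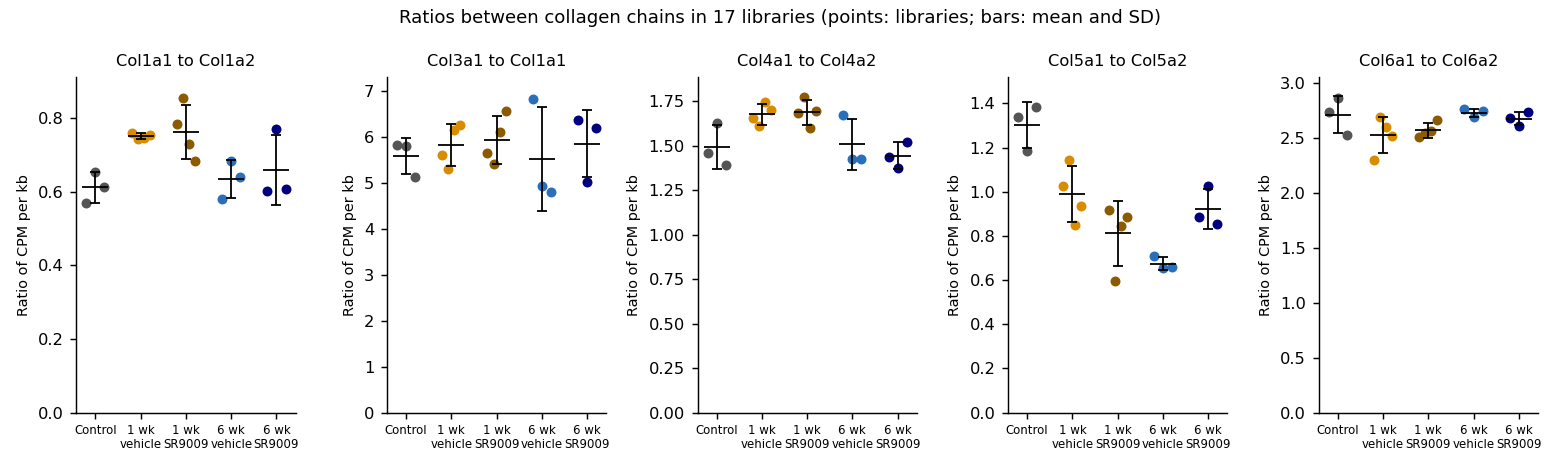
Ratio of CPM per kb (y axis, from 0) between pairs of collagen chains in 5 groups (x axis). Points are libraries and bars the mean and SD. The Col5a1 to Col5a2 ratio is 1.18 to 1.38 in Control and 0.653 to 0.708 at 6 weeks with vehicle.

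SR9009 against vehicle at 1 week asks whether the compound changed collagen expression early. No member was called (0 of 37), where 0% of all tested genes were called by edgeR. DESeq2 called 0 members and 0.191% of all genes. At an unadjusted p under 0.05 there were 3 members. The share of all genes at that threshold is not given, so this count is not read as a result. The median log2 difference was 0.01 over the members and 0.002 over all genes. Col1a1 was at 178, 361, 118 and 103 CPM with SR9009 and 182, 117, 198 and 219 with vehicle (0.08 ± 0.29, adjusted p = 0.988), and the groups overlapped. Col3a1 was at 1497, 2918, 1075 and 1011 CPM with SR9009 and differed by 0.04 ± 0.27, Col4a1 at 1464, 2029, 1052 and 1126 by -0.27 ± 0.17 and Col8a1 at 237, 537, 157 and 138 by 0.20 ± 0.36. Col12a1 was at 21.9, 80.9, 13.7 and 9.66 CPM (0.54 ± 0.55). In each of these replicate 2 was the highest SR9009 library, and without it the estimates were -0.43 for Col1a1, -0.40 for Col3a1, -0.40 for Col8a1 and -0.55 for Col12a1, none of them called. Without the 3 libraries named above together, Col5a3 was called (lower, -0.65 ± 0.11), where 0.0437% of all genes were. The smallest unadjusted p were those of Col7a1 (-0.74 ± 0.27), an anchoring fibril chain, and Col4a3 (-0.28 ± 0.11).

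After 6 weeks, 1 of 37 members differed between SR9009 and vehicle, where 0.169% of all tested genes were called in either direction (0.119% higher, 0.0502% lower). It was Col4a3, at 18.8, 17.9 and 17.2 CPM with SR9009 and 29.3, 35.6 and 26.4 with vehicle, a fall of -0.76 ± 0.12 (adjusted p = 0.0208). No SR9009 library reached the vehicle range, and the SR9009 libraries lay within the Control range of 13.5 to 19.1 CPM. The call did not hold without TAC 6 week vehicle replicate 2 (adjusted p = 0.108), without TAC 6 week SR9009 replicate 1 (0.0925) or replicate 2 (0.135), or when only these groups were fitted (0.171). DESeq2 called 2 members and 1.93% of all genes. Its trimer partners Col4a4 (-0.35 ± 0.13, adjusted p = 0.193) and Col4a5 (-0.12 ± 0.08, adjusted p = 0.458) missed the threshold.

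The median log2 difference with SR9009 at 6 weeks was -0.31 over the members and 0.002 over all genes. At an unadjusted p under 0.05 there were 11 members. The share of all genes at that threshold is not given, so this count is not read as a result. Col8a1 was at 109.5, 104 and 129 CPM with SR9009 against 171, 409.6 and 274 with vehicle (-1.31 ± 0.43, adjusted p = 0.161). Col12a1 was at 12.5, 7.71 and 12.4 CPM against 15.5, 59.5 and 61.1 (-2.04 ± 0.67, adjusted p = 0.162) and Col8a2 at 1.44, 1.84 and 2.92 against 2.35, 8.97 and 10.6 (-1.79 ± 0.52, adjusted p = 0.131). In Col8a1 and Col12a1 the groups did not overlap, while Col8a2 overlapped through vehicle replicate 1. In groups this small, lack of overlap can arise by chance and is not read as a result. Col1a1 was at 59.6, 73.7 and 59.2 CPM (-0.61 ± 0.35), Col1a2 at 187, 181 and 185 (-0.65 ± 0.29), Col3a1 at 567, 552 and 548 (-0.49 ± 0.31) and Col5a2 at 115, 105 and 114 (-0.73 ± 0.34), with adjusted p of 0.423, 0.291, 0.46 and 0.311. Col6a6 (0.84 ± 0.26) and Col5a3 (0.71 ± 0.31) had positive estimates that missed as well. Col5a3 was at 63.7, 23.0 and 18.9 CPM with vehicle and 62.4, 51.4 and 58.8 with SR9009, so vehicle replicate 1 was above the SR9009 libraries and the other vehicle libraries far below them.

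Without TAC 6 week vehicle replicate 1, 7 members were called between SR9009 and vehicle at 6 weeks, where 9.2% of all genes tested in that fit were called. That library was singled out by its collagen and marker values, so calls gained without it are no separate evidence. Lower with SR9009 were Col12a1 (-2.45 ± 0.64), Col8a2 (-2.21 ± 0.43), Col8a1 (-1.58 ± 0.44), Col4a3 (-0.78 ± 0.13) and Col22a1 (-0.69 ± 0.20), and higher were Col5a3 (1.46 ± 0.19) and Col6a6 (1.04 ± 0.29). Without the 3 libraries together 12 members were called, 10 lower and 2 higher, where 13.5% of all genes were. Activated fibroblast markers summed to 342 to 446 CPM with SR9009 at 6 weeks, below the vehicle range of 546 to 1289. Postn alone was at 209 to 280 CPM with SR9009 and 368 to 1070 with vehicle, so the sum mostly follows that gene. With all libraries 0 of the 6 markers were called, where 0.169% of all genes were. Their part in the collagen values was not tested.

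**Figure D5:**
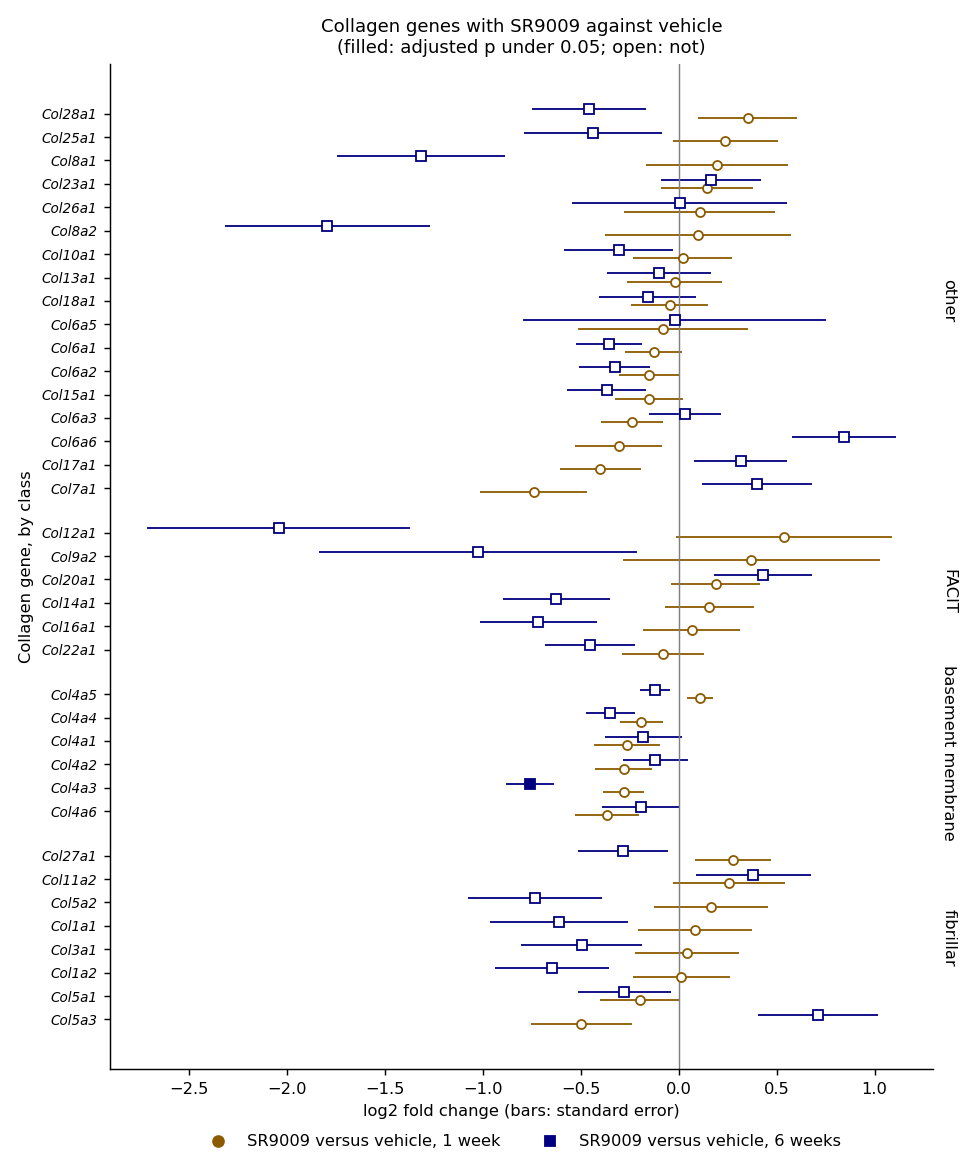
Log2 fold change of SR9009 against vehicle (x axis, bars are SE) of the 37 tested collagen genes (y axis, by class) at 1 week (circles) and 6 weeks (squares). The single filled symbol is Col4a3 at 6 weeks, at -0.76; the 6 week estimates of Col12a1, Col8a2 and Col8a1 lie farthest left.

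Against Control, 19 members were higher and 3 lower after 1 week with SR9009, where 11.4% of genes tested were higher, 8.48% lower and 19.9% called in either direction. The median log2 fold change was 0.65 over the members and -0.01 over all genes. Largest were Col12a1 (3.26 ± 0.80), Col8a1 (2.42 ± 0.44), Col5a2 (1.88 ± 0.34), Col3a1 (1.73 ± 0.30), Col1a1 (1.69 ± 0.34), Col14a1 (1.58 ± 0.27), Col16a1 (1.52 ± 0.30) and Col1a2 (1.32 ± 0.28). Col5a1 (1.09 ± 0.23), Col18a1 (1.05 ± 0.23), Col6a3 (0.83 ± 0.18), Col6a2 (0.83 ± 0.17), Col15a1 (0.81 ± 0.19), Col6a1 (0.75 ± 0.16), Col4a1 (0.72 ± 0.19), Col27a1 (0.65 ± 0.22), Col4a2 (0.53 ± 0.16), Col4a5 (0.45 ± 0.07) and Col4a3 (0.39 ± 0.12) were also higher. Col6a6 (-0.78 ± 0.23), Col13a1 (-0.75 ± 0.24) and Col17a1 (-0.74 ± 0.21) were lower, while Col4a4 (0.34 ± 0.12, adjusted p = 0.0545) and Col8a2 (1.44 ± 0.61, adjusted p = 0.106) missed. Col4a5 was at 140.4, 166, 143 and 147 CPM against 103, 109.8 and 115 in Control, and Col16a1 at 33.1, 61.2, 26.2 and 22.0 against 10.7, 12.7 and 14, both without overlap. Of the 22 calls, 14 passed in all fits that left out 1 library. Without TAC 1 week SR9009 replicate 2 the count was 17, without Control replicate 3 it was 14, and with the library total as a covariate it was 1; totals did not overlap between these groups either. Macrophage markers summed to 634 to 1016 CPM, with 8 of 8 higher than Control, and activated fibroblast markers to 468 to 2347 CPM, with 5 of 6 higher. Smooth muscle and pericyte markers summed to 2327 to 2547 CPM against 2480 to 2683 in Control, with 4 of 10 higher and 2 lower. Their part in the collagen result was not tested.

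After 6 weeks with SR9009, 0 of 37 members differed from Control in the edgeR test, where 4.38% of all tested genes were called (2.6% higher, 1.78% lower). DESeq2 called 0 members and 6.03% of all genes. At an unadjusted p under 0.05 there were 7 members. The share of all genes at that threshold is not given, so this count is not read as a result. The comparison shares its Control libraries with the vehicle comparison. Col8a1 was estimated 1.20 ± 0.45 above Control (adjusted p = 0.142), Col12a1 1.73 ± 0.90 (adjusted p = 0.313), Col3a1 0.18 ± 0.31 (adjusted p = 0.814) and Col4a3 0.09 ± 0.13 (adjusted p = 0.786). The Col8a1, Col12a1 and Col3a1 libraries were all above Control. When only these groups were fitted, 9 members passed. The share of all genes called in that fit is not given here, so the count shows only dependence on the fit. Without the 3 libraries together 2 passed, Col12a1 (2.08 ± 0.57) and Col8a1 (1.25 ± 0.33), where 7.73% of all genes did.

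From 1 to 6 weeks with SR9009, 14 members fell and 1 rose, where 5.66% of all tested genes fell, 3.29% rose and 8.95% were called in either direction. Col3a1 (-1.55 ± 0.30), Col1a1 (-1.57 ± 0.34), Col1a2 (-1.30 ± 0.28), Col5a2 (-1.30 ± 0.33), Col5a1 (-1.01 ± 0.23), Col14a1 (-1.28 ± 0.26), Col16a1 (-0.95 ± 0.28), Col25a1 (-1.06 ± 0.32), Col18a1 (-1.05 ± 0.23), Col6a2 (-0.76 ± 0.17), Col15a1 (-0.70 ± 0.19), Col6a1 (-0.70 ± 0.16), Col6a3 (-0.57 ± 0.17) and Col4a5 (-0.36 ± 0.07) fell. Col7a1 rose (0.94 ± 0.28), from at most 1.07 CPM to 1.26 to 1.84 CPM. It had 7 to 24 fragments per library over all 17 libraries. Its call was lost in 6 of 7 fits that left out 1 library, as was that of Col25a1, and with DESeq2 (adjusted p = 0.106). Of the 15 calls, 4 passed in every fit that left out 1 library. Col4a1 (-0.58 ± 0.18), Col8a1 (-1.22 ± 0.41) and Col12a1 (-1.53 ± 0.65) missed (adjusted p of 0.056, 0.067 and 0.145). Without TAC 1 week SR9009 replicate 2, 12 members passed. The count was 10 without TAC 1 week SR9009 replicate 1, and 5, 7 and 8 without TAC 6 week SR9009 replicates 1, 2 and 3. Macrophage markers summed to 634 to 1016 CPM at 1 week and 487 to 558 at 6 weeks with SR9009, with 7 of 8 lower at 6 weeks. Activated fibroblast markers summed to 468 to 2347 and 342 to 446 CPM, with 2 of 6 lower. Mesothelial markers summed to 27.4 to 44.0 and 9.55 to 22.2 CPM, with 3 of 4 lower. Their part in the fall of the chains was not tested.

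Whether the SR9009 difference changed between weeks was tested as the 6 week difference minus the 1 week difference. No member passed (0 of 37), where 0.119% of all tested genes did (0.0942% higher, 0.0251% lower). DESeq2 called 0 members and 1.54% of all genes. At an unadjusted p under 0.05 there were 10 members. The share of all genes at that threshold is not given, so this count is not read as a result. The estimates were -2.58 ± 0.87 for Col12a1 (adjusted p = 0.208), -1.51 ± 0.56 for Col8a1 (0.251), -0.54 ± 0.41 for Col3a1 (0.579) and -0.48 ± 0.16 for Col4a3 (0.208). Without TAC 6 week vehicle replicate 1, where 5.94% of genes were called, 4 members passed: Col5a3 (1.96 ± 0.23), Col6a6 (1.34 ± 0.36), Col12a1 (-2.99 ± 0.81) and Col8a2 (-2.31 ± 0.58). With all libraries their estimates were 1.21 ± 0.40 for Col5a3, 1.15 ± 0.35 for Col6a6 and -1.89 ± 0.71 for Col8a2. The same 4 passed without the 3 libraries together, where 6.61% of all genes did.

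Genes that modify and assemble collagen were counted in the same comparisons. Of 30 maturation genes, all tested, 11 were higher and 0 lower than Control after 1 week with vehicle and 19 were not called, where 8.91% of all genes were higher; the list had a median log2 fold change of 0.36. The smallest p were those of Adamts2 (1.26 ± 0.23), a protease that trims procollagen, and Serpinh1 (0.68 ± 0.14), the collagen chaperone. After 6 weeks 8 were higher and 0 lower, where 10.7% of all genes were higher, led by Pcolce2 (0.76 ± 0.13), an enhancer of procollagen cleavage, and P4ha1 (0.61 ± 0.12), a prolyl hydroxylase chain. From 1 to 6 weeks with vehicle 2 rose and 4 fell, where 6.18% of all genes rose and 5.9% fell. SR9009 against vehicle gave 0 calls at either time, with a median of -0.18 at 6 weeks. Over all tested genes, 0% were called at 1 week and 0.169% at 6 weeks, so 0 calls does not show that these genes were unchanged.

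Of 9 collagen receptor genes tested, 3 were higher than Control at 1 week and 3 at 6 weeks with vehicle, and 0 were lower. Over all tested genes, 8.91% were higher and 5.92% lower at 1 week, and 10.7% higher and 9.96% lower at 6 weeks. Mrc2, an uptake receptor for collagen, was higher by 0.92 ± 0.23 at 1 week and 0.77 ± 0.24 at 6 weeks, Itgb1 by 0.37 ± 0.09 at 1 week and Ddr2, a receptor kinase for fibrillar collagen, by 0.28 ± 0.09 at 6 weeks. Of 5 collagen-degrading enzyme genes tested, 2 were higher at 1 week (Mmp2, 0.58 ± 0.14, and Mmp14, 0.94 ± 0.29). At 6 weeks Mmp2 (0.67 ± 0.15) and Ctsk (1.01 ± 0.27) were higher and Mmp9 (-1.67 ± 0.56) was lower. SR9009 against vehicle gave 0 calls in both lists at either time, where 0% of all tested genes were called at 1 week and 0.169% at 6 weeks. In lists this short, 0 calls does not show that the genes were unchanged.

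Other marker lists held the following calls against Control. Over all tested genes, 8.91% were higher and 5.92% lower at 1 week, and 10.7% higher and 9.96% lower at 6 weeks. Calls of 1 or 2 genes in lists this short are therefore not read as results. Smooth muscle and pericyte markers had 1 of 10 higher and 1 lower at 1 week with vehicle, and 1 higher and 2 lower at 6 weeks. Cardiomyocyte markers had 1 of 8 higher and 2 lower at 1 week, and 2 higher and 1 lower at 6 weeks. Endothelial markers had 0 of 7 called at 6 weeks. Schwann cell markers had 1 of 5 tested higher at 1 week (Prx) and 1 lower at 6 weeks (Mbp), and atrial markers 1 of 3 tested higher at both times (Nppa) and 1 lower at 6 weeks (Myl7). Cartilage and valve markers had 1 of 4 tested higher at 1 week (Acan, 3.29 ± 0.73) and 2 at 6 weeks (Comp and Acan). Of the adipocyte markers only Cidea could be tested, and it was higher at 6 weeks (0.39 ± 0.09). Lung and airway markers had 0 tested.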

How the data were processed

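Total heart RNA was sequenced in 17 libraries, from 1 ug each, per the labels. The authors' deposited tables hold, per the file headers, estimated counts of fragments per gene in the read-group layout of Cuffdiff; per the submitters' processing notes, the build was mm10. The deposited FPKM values and scaled counts were not used, and no source used here names an aligner or annotation. The 78 genes marked as too deep in at least 1 library were left out; no collagen gene had such a mark. Of the gene IDs, 40252 were found in GENCODE release 21 for mouse and 874, with 0.719% to 2.33% of fragments, were not. Counts were rounded to whole numbers, scaled with TMM and tested in edgeR 4.0.16 (R 4.3.3) by the quasi-likelihood test over all 17 libraries with 1 mean per group, after filterByExpr, which left 15931 genes and removed 25117. A call is a Benjamini-Hochberg adjusted p under 0.05 over all genes tested. Where an alternative fit is given without the share of all genes called, its count shows only how calls depended on the fit. SE is the log2 fold change over the square root of F. CPM uses TMM-effective library sizes, and levels between genes are CPM per kb of merged exons. The alternatives were RLE scaling, no filter, a replicate block, library total as a covariate, only the groups compared, each library left out, the 3 libraries named in the report left out together, and DESeq2 1.42.0. Library totals were 8683212 to 15809965 fragments. Every collagen member could be named; values in each library were fixed for 13 chains and the 2 further called members with the smallest p per comparison, and trimer partners that missed were named beside those that passed. A few further members that missed were chosen after their values were seen. Members and lists were chosen with earlier results of these data known. The result of 1 marker list is not reported here.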

Additional observations from a re-analysis of the deposited data

Results flagged for a closer look

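In 6 of 84 groups of 4 libraries, 1 library stood far from the others of its group, where chance flags about 1 in 20 groups. TAC 1 week vehicle replicate 2 was far from the rest of its group in Col17a1 (4.585 CPM), Col26a1 (0.6878 CPM) and Col5a3 (67.4 CPM). TAC 1 week SR9009 replicate 2 stood apart in Col8a2 (6.727 CPM) and Col9a2 (4.866 CPM), and TAC 1 week SR9009 replicate 3 in Col22a1 (6.537 CPM). Both replicates numbered 2 are libraries described in the report as standing apart.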

How the results depend on the processing

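The numbers that groups share did not pair libraries: 3 of 25 correlations of same-numbered deviations were over 0.1 (range -0.8 to 0.187). With the replicate block, 6 members were called from 1 to 6 weeks with vehicle and 9 with SR9009, and Col1a1 (-0.045) and Col3a1 (-0.033) turned negative for SR9009 against vehicle at 1 week, as did Col6a5 (-0.017) at 1 week against Control. With the library total as a covariate the counts were 1 for 6 weeks with vehicle and 1 for 1 week with SR9009, both against Control, 0 from 1 to 6 weeks with vehicle and 0 for SR9009 against vehicle at 6 weeks. That fit also turned Col18a1 (-0.015) and Col6a3 (-0.054) at 6 weeks against Control, Col12a1 (-0.064) and Col8a1 (-0.208) from 1 to 6 weeks with vehicle, and Col12a1 (-0.254), Col1a1 (-0.076), Col3a1 (-0.211) and Col8a1 (-0.161) for SR9009 at 1 week. Fitting only the groups compared gave 19 calls at 6 weeks against Control, 0 for SR9009 at 6 weeks, 9 for SR9009 at 6 weeks against Control and 3 from 1 to 6 weeks with SR9009. No filter gave 4 calls for SR9009 at 6 weeks and DESeq2 gave 2. Leaving out the 3 libraries together gave 18 calls at 6 weeks against Control (26.3% of all genes tested in that fit), 16 from 1 to 6 weeks with vehicle (20.9%), 1 for SR9009 at 1 week (Col5a3; 0.0437%), 12 for SR9009 at 6 weeks (13.5%, against 0.169% with all libraries), 2 for SR9009 at 6 weeks against Control (7.73%) and 4 for the difference between weeks (6.61%). It turned Col12a1 (-0.565), Col1a1 (-0.434), Col3a1 (-0.399) and Col8a1 (-0.397) for SR9009 at 1 week.

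Leaving out single libraries gave 17 to 20 calls at 1 week against Control, 7 to 12 at 6 weeks, 2 to 11 from 1 to 6 weeks with vehicle, 0 to 7 for SR9009 at 6 weeks, 14 to 22 for SR9009 at 1 week against Control, 5 to 17 from 1 to 6 weeks with SR9009 and 0 to 4 for the difference between weeks. The mean collagen share ranged from 0.3155% to 0.3281% in Control, 0.68% to 0.8008% and 0.5329% to 0.7415% at 1 week with vehicle and SR9009, and 0.4126% to 0.4678% and 0.3439% to 0.3571% at 6 weeks. For SR9009 against vehicle at 1 week, single libraries left out gave -0.553 to 0.87 for Col12a1, -0.432 to 0.286 for Col1a1, -0.399 to 0.21 for Col3a1 and -0.395 to 0.409 for Col8a1. The lowest of each came without TAC 1 week SR9009 replicate 2. Without TAC 1 week vehicle replicate 2 they turned to -0.073 for Col1a1, -0.144 for Col3a1 and -0.028 for Col8a1. Col8a1 from 1 to 6 weeks with vehicle was lowest without TAC 6 week vehicle replicate 2 (-0.069) and highest without the 3 libraries together (0.555), and Col4a3 for SR9009 at 6 weeks against Control was -0.05 to 0.179, lowest without Control replicate 1. Col6a5 at 1 week against Control was -0.013 without Control replicate 2, -0.009 without the 3 libraries together and 0.405 without Control replicate 1. The cause of these shifts was not tested. RLE scaling turned no estimate and moved no count of calls by over 1.5 times. Where 1 library is left out of a group of 3, 2 libraries carry that group's mean and the spread comes from all groups.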
